A study of Mus musculus with 12 samples.

Results

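The genes described here are 10 enzymes of the antioxidant defence, several of them known targets of the transcription factor NRF2: Gpx1, Gpx4, Gpx6, Sod1, Sod2, Nqo1, Hmox1, Gclc, Gclm and Txnrd1. They were chosen by name, and a gene was represented by the mean of the probe sets whose only symbol in the platform annotation was that gene. All 10 were on the array, of 19938 genes with a single symbol, through 11 probe sets, of which Gpx4 had 2. RNA of the anterior striatum was measured on 12 arrays; the mice were adolescent males of the outbred Swiss CD-1 stock. All animals went through a 10-day conditioned place preference procedure, in which 1 compartment is paired with a drug given 15 minutes before entry. The 4 groups of 3 arrays received saline, ethanol, mephedrone (a synthetic cathinone stimulant), or mephedrone with ethanol, here called the combination. The labels give no dose and no hour of collection, and do not say that each array is a separate animal, so p-values reflect only the variation among these samples, part of which may be technical.

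Superoxide, a by-product of respiration, is turned into hydrogen peroxide by superoxide dismutases: Sod1 in the cytosol and Sod2 in the mitochondrial matrix. Glutathione peroxidases then reduce peroxides with glutathione, which is made by a ligase of a catalytic (Gclc) and a modifier (Gclm) subunit, while thioredoxin reductase 1 (Txnrd1) keeps the parallel thioredoxin system reduced. Under oxidative or electrophilic stress NRF2 escapes its inhibitor KEAP1 and binds antioxidant response elements of genes such as Nqo1, Hmox1, Gclc, Gclm and Txnrd1. Dopamine-rich tissue such as the striatum is of interest here because dopamine oxidation yields quinones and peroxide, and Nqo1 encodes a quinone reductase.

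The core of that element, TGACNNNGC, was looked for on both strands of RefSeq promoter windows (build GRCm38.p6) that run from 250 bases before to 50 bases after a start site. Of the 10 genes 8 had at least 1 window. Hmox1 and Gclc had none and could not be searched. Sod1, Gclm and Txnrd1 held matches, Txnrd1 in 1 of its 3 windows. They are shown because they are the stretches of the members' proximal promoters that match the motif through which NRF2 acts. Capitals mark the match, and each stretch is written 5′ to 3′ on its own strand.
Sod1, chr16:90220696-90220724, minus strand: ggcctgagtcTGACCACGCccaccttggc
Gclm, chr3:122245413-122245441, minus strand: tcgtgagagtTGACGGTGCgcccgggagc
Txnrd1, chr10:82859104-82859132, minus strand: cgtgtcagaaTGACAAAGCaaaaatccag
The motif was found in 12.4% of all 32851 windows of the same length and in 3 of the members' 13 windows, and no other motif was searched. By gene it was found in 14% of the 27025 genes with a window and in 3 of the 8 such members. A match of these letters is a description and not a binding site, and elements farther from the start lie outside the windows. Of the genes with a match, Gclm and Txnrd1 are classical NRF2 targets. No member, with or without a match, showed a difference between groups that passed the test, as given below. The matches therefore cannot be related to that outcome.

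Every value is on a log2 scale with the median of its probe set over all arrays set to 0, so values give a gene's standing among the arrays and not its abundance, and levels of different genes cannot be compared. No member passed an adjusted p of 0.05 in limma in any of 10 comparisons. The share of all genes that passed was 0.115% for the mephedrone main effect, 0.0251% for the combination against ethanol, 0.0100% for the combination against saline and 0.00502% for the F test of any difference among the groups. It was 0.00% for ethanol against saline, mephedrone against saline, the combination against mephedrone, mephedrone against ethanol, the ethanol main effect and the interaction. A main effect compares the 6 arrays given a drug with the 6 not given it, and the interaction subtracts the difference between ethanol and saline from that between the combination and mephedrone. Gpx6, Sod2 and Gpx1 had the smallest p-values among the members, and the other 7 had narrow differences, most of them within 0.1 in log2.

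The arrays differed in tissue markers. Choroid plexus markers (14 of 15 measured) had list means of 1.72 in combination replicate 3, 0.98 in saline replicate 2, 0.73 in ethanol replicate 1, 0.53 in mephedrone replicate 1 and 0.52 in combination replicate 2, against -0.17 to -0.039 in the others. Cortical excitatory neuron markers ran from -0.63 in ethanol replicate 2 and -0.46 in saline replicate 1 to 0.42 in saline replicate 2 and mephedrone replicate 2 and 0.93 in combination replicate 3. Combination replicate 3 also stood at 0.50 for oligodendrocytes and -0.30 for striatal projection neurons, and ethanol replicate 1 at -0.18 for the latter. In the mephedrone main effect 14 of 14 choroid plexus markers (median 0.16) and 8 of 8 cortical markers (median 0.31) were above 0. None of them passed. Against saline, choroid plexus markers were below 0 in 13 of 14 with mephedrone alone (median -0.19). They were above 0 in 14 of 14 with the combination (median 0.39). Cortical markers were above 0 in 7 of 8 with mephedrone alone (median 0.13) and in 8 of 8 with the combination (median 0.35). These shifts stand beside every mephedrone main effect given below, those of Sod2, Gpx1 and Prdx3 among them. Their part in those effects was not tested beyond the choroid plexus covariate. In the ethanol main effect choroid plexus markers were above 0 in 14 of 14 (median 0.24) and astrocyte markers in 10 of 10 (0.075). Oligodendrocyte markers were above 0 in 8 of 9 (0.076) and cortical markers in 6 of 8 (0.059). Striatal projection neuron markers were below 0 in 9 of 11 (median -0.076). The ethanol main effects given below, those of Nqo1 and Nfe2l2 among them, stand beside these shifts. Over all probe sets combination replicate 3 and ethanol replicate 1 had SDs of 0.169 and 0.127, against 0.102 or less in the others. Since a centred table holds no levels, whether a marker was absent could not be read. In such bulk tissue, fewer cells of a type and less RNA per cell cannot be told apart.

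Gpx6, a glutathione peroxidase known mainly from olfactory epithelium, which in the mouse carries a cysteine where most relatives carry selenocysteine, stood highest in the mephedrone arrays. Its values were 0.50, 0.58 and 0.85 with mephedrone. They were -0.013, -0.27 and 0.14 with saline. They were -0.36, -0.090 and -0.36 with ethanol and 0.19, 0.013 and -0.33 with the combination. All 3 mephedrone arrays therefore lay above all 9 others, and the other 3 groups overlapped one another. The share of all genes in which the arrays of a group lay apart from the 9 others was not counted. Group means were 0.64 ± 0.18 (SD, n = 3) with mephedrone, -0.047 ± 0.21 with saline, -0.27 ± 0.16 with ethanol and -0.043 ± 0.26 with the combination.

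Mephedrone alone was 0.69 above saline for Gpx6 (SE 0.14, 1.61-fold, limma adjusted p = 0.305) and 0.91 above ethanol (SE 0.14, 1.88-fold, unadjusted p = 4.47e-05, adjusted p = 0.178). That last p was the fifth smallest of 19938 genes in the comparison and the smallest of any member in any comparison. The combination was 0.69 below mephedrone alone, a log2 change of -0.69 (SE 0.14, 0.622-fold, adjusted p = 0.992), and stood at 0.0045 against saline (SE 0.14), with a 95% interval from -0.31 to 0.32. These comparisons share arrays, the mephedrone group among them. The ethanol main effect was -0.45 (SE 0.10, adjusted p = 0.941) and the mephedrone main effect 0.46 (SE 0.10, adjusted p = 0.0937). The interaction was -0.46 (SE 0.20, 95% interval -0.91 to -0.019, limma adjusted p = 1), with an unadjusted p of 0.0422. It did not pass, which does not show that the mephedrone difference was the same with and without ethanol.

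The Gpx6 call depended on the setting. Against ethanol the mephedrone group passed with array weights, which count noisier arrays less (0.93, adjusted p = 0.0243), with the choroid plexus marker mean as a covariate (0.88, adjusted p = 0.00665) and without combination replicate 3 (0.91, adjusted p = 0.0429). In the mephedrone main effect it passed with array weights (0.52, adjusted p = 0.0218), with the covariate (0.51, adjusted p = 0.00980) and without both arrays that stand apart, combination replicate 3 and ethanol replicate 1 (0.51, adjusted p = 0.0413). Combination replicate 3 is in neither the mephedrone nor the ethanol group. Leaving it out therefore changed the spread and the adjustment for mephedrone against ethanol, and not the estimate of 0.91. The interaction shrank to -0.26 with the covariate, to -0.36 without both arrays and to -0.32 without combination replicate 3 alone. The lowest Gpx6 value of the combination, -0.33, was in replicate 3, where striatal projection neuron markers were at -0.30. The other 2 combination arrays had -0.0010 and 0.0073 for those markers. The mephedrone arrays had 0.031, 0.0060 and 0.038, and among the ethanol arrays the markers were at -0.18, 0.068 and 0.042 where Gpx6 was at -0.36, -0.090 and -0.36. Among the saline arrays the markers were at -0.0026, -0.039 and -0.018 where Gpx6 was at -0.013, -0.27 and 0.14. With the covariate the combination stood at -0.50 against mephedrone, in place of -0.69. The part of tissue makeup in the Gpx6 values was otherwise not tested.

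Gpx6 was also the most variable member. Its within-group SD of 0.21 was above that of 97.5% of genes, and its range over the 12 arrays was 1.21 against a median of 0.23 over all genes. Gpx5, the neighbouring protein-coding gene in RefSeq and a close relative best known from the epididymis, ran between -0.064 and 0.041 over the 12 arrays, and was at -0.013 for mephedrone against saline (SE 0.040). Gpx5 was named after its values were seen, and whether it was expressed in this tissue cannot be read from a centred table.

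**Figure D1:**
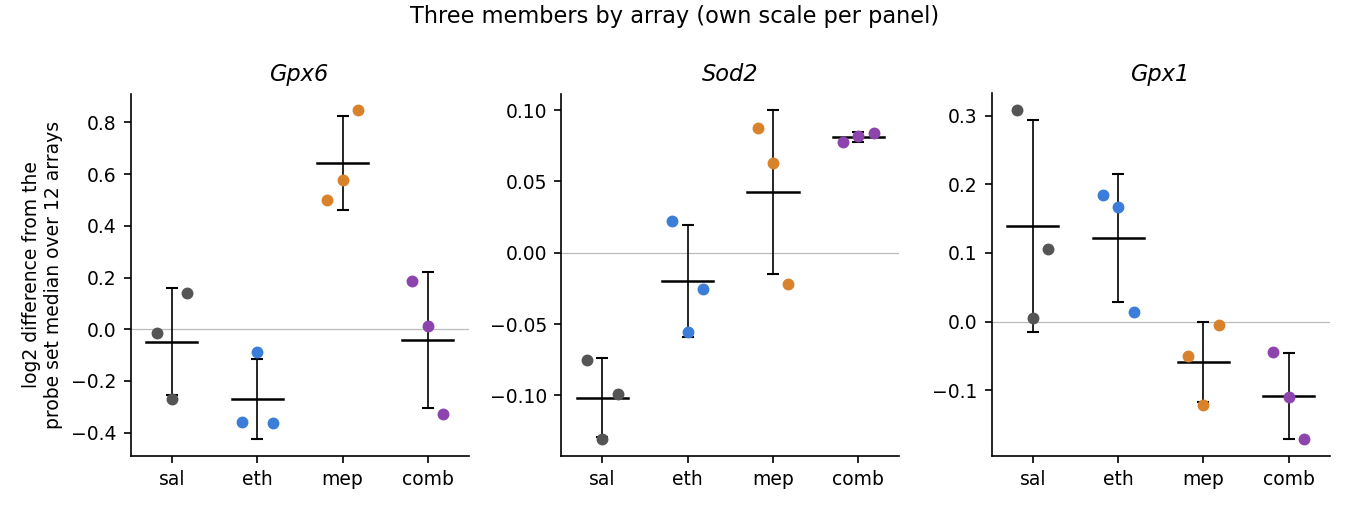
Log2 difference from the probe set median over 12 arrays (vertical axis, own scale per panel) for Gpx6, Sod2 and Gpx1 in the saline (sal), ethanol (eth), mephedrone (mep) and combination (comb) groups. Points are arrays, horizontal bars are group means and error bars are SDs. The 3 mephedrone points of Gpx6, from 0.50 to 0.85, lie above all others, the saline points of Sod2 lie lowest, and all 6 mephedrone and combination points of Gpx1 lie below the 6 others.

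Sod2, the manganese superoxide dismutase of mitochondria, stood lowest with saline and highest with the combination. Its values were -0.075, -0.13 and -0.099 with saline. They were 0.022, -0.056 and -0.026 with ethanol. With mephedrone they were 0.087, 0.063 and -0.022, and with the combination 0.077, 0.082 and 0.084. The saline arrays lay below all 9 arrays of the drug groups, while the mephedrone group overlapped both ethanol and the combination. As for Gpx6, the share of all genes with such a separation was not counted. Group means were -0.10 ± 0.028 (SD, n = 3), -0.020 ± 0.039, 0.043 ± 0.057 and 0.081 ± 0.0035 in the same order.

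The differences of Sod2 were small in size. The combination was 0.18 above saline (SE 0.037, 1.13-fold, adjusted p = 0.118), mephedrone 0.14 (SE 0.037, 1.11-fold, adjusted p = 0.380) and ethanol 0.082 (SE 0.037, 1.06-fold, adjusted p = 0.997). These 3 comparisons share the saline arrays. The combination was 0.10 above ethanol (SE 0.037, adjusted p = 0.418) and 0.038 above mephedrone (SE 0.037), with a 95% interval of the latter that included 0. The mephedrone main effect was 0.12 (SE 0.026, 95% interval 0.065 to 0.18, adjusted p = 0.0906), with overlap between the 6 and 6 arrays. It passed with array weights (0.13, adjusted p = 0.0364) and in no other setting, and ran from 0.11 to 0.14 over the 19 settings that could be fitted. The interaction was -0.043 (SE 0.053).

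Gpx1, the abundant cytosolic glutathione peroxidase and a selenoprotein, stood lower in both groups given mephedrone. Its values were 0.31, 0.0048 and 0.11 with saline and 0.18, 0.17 and 0.014 with ethanol. They were -0.050, -0.12 and -0.0048 in the mephedrone arrays and -0.045, -0.11 and -0.17 in the combination arrays. All 6 arrays given mephedrone lay below all 6 others, though mephedrone replicate 3 at -0.0048 and saline replicate 2 at 0.0048 were close. Group means were 0.14 ± 0.15 (SD, n = 3), 0.12 ± 0.094, -0.059 ± 0.058 and -0.11 ± 0.063.

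The mephedrone main effect of Gpx1 was -0.21 (SE 0.052, 0.862-fold, 95% interval -0.33 to -0.10, limma adjusted p = 0.120). Gpx1 was the 1 member without overlap in that comparison, where 1.27% of all genes had none and 0.361% were lower. The combination was at -0.25 against saline (SE 0.074, adjusted p = 0.235) and mephedrone at -0.20 (SE 0.074, adjusted p = 0.598). Ethanol was at -0.018 against saline (SE 0.074) and the interaction at -0.032 (SE 0.10), with 95% intervals from -0.18 to 0.14 and from -0.26 to 0.20. The main effect kept its sign in 19 settings, between -0.25 without saline replicate 2 and -0.17 without saline replicate 1, and passed in none. For the combination against saline the value moved from -0.25 to -0.16 without saline replicate 1, the array with the highest value, and to -0.32 without saline replicate 2. For mephedrone against saline it moved from -0.20 to -0.11 without saline replicate 1 and to -0.27 without saline replicate 2. Microglial markers were also lower in the mephedrone main effect, with 11 of 12 below 0 and a median of -0.072, and endothelial markers with 9 of 11 below 0, 1 of which passed, and a median of -0.068. Their list means ran from -0.072 to 0.013 (microglia) and from -0.077 to 0.054 (endothelium) in the 6 arrays given mephedrone, and from -0.0086 to 0.11 and from -0.023 to 0.15 in the 6 others. Both red blood cell markers measured, of 5 listed, were lower too (median -0.095). Their means ran from -0.11 to 0.010 in the 6 arrays given mephedrone and from -0.043 to 0.091 in the 6 others. Of the striatal projection neuron markers 8 of 11 were below 0 (median -0.049). Every other marker list had a median above 0 in this comparison. The part of the microglial, endothelial, red blood cell and striatal neuron markers in the Gpx1 values was not tested.

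**Figure D2:**
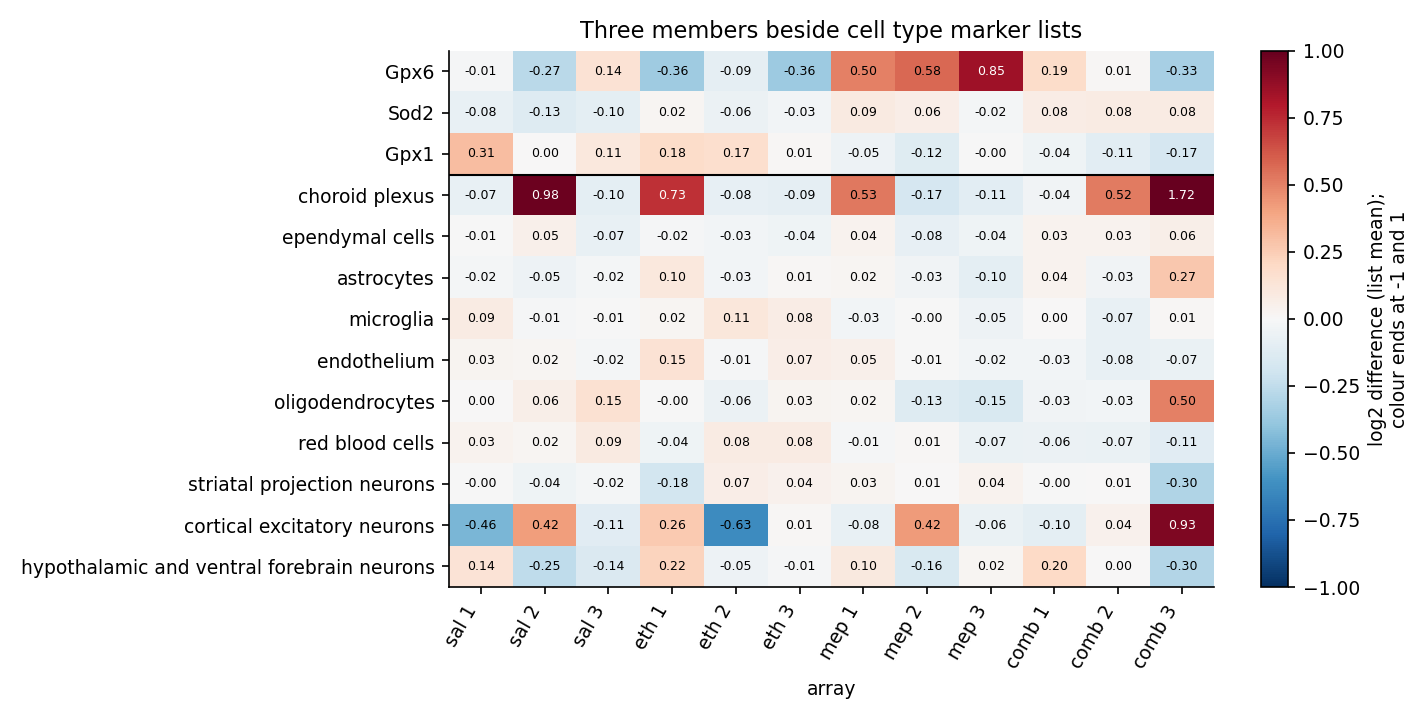
Gpx6, Sod2 and Gpx1 (upper 3 rows, log2 difference from the median) above the mean of each cell type marker list (lower rows, same unit) in each array, with columns named by group and replicate. Colour ends at -1 and 1, and the numbers give the values. Choroid plexus markers reach 1.72 in combination replicate 3, where Gpx6 is at -0.33. They are at 0.53 in mephedrone replicate 1, where Gpx6 is at 0.50, and at -0.091 in ethanol replicate 3, where Gpx6 is at -0.36. Sod2 in the combination keeps to values between 0.077 and 0.084.

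Gpx4, the selenoprotein that reduces lipid hydroperoxides and guards against ferroptosis, had means of 0.063 ± 0.068 (SD, n = 3) in the saline group, -0.027 ± 0.080 in the ethanol group, -0.030 ± 0.042 in the mephedrone group and 0.015 ± 0.090 in the combination group. All groups overlapped, and its smallest p was that of the interaction, at 0.14 (SE 0.080, unadjusted p = 0.117), or 0.085 without combination replicate 3. Its 2 probe sets differed by at most 0.040 on any array. RefSeq also lists the pseudogenes Gpx4-ps1 and Gpx4-ps2, so signal from a near copy cannot be told apart here. Sod1, the copper-zinc dismutase of the cytosol, ran from -0.048 to 0.064 over all arrays. Its range was narrower than that of most genes (percentile 6.44), and its mephedrone main effect was -0.012 with a 95% interval from -0.072 to 0.047.

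None of the NRF2 targets among the members passed in any comparison. Nqo1, the quinone reductase, was at -0.0094, 0.0090 and -0.079 with saline and 0.028, 0.085 and -0.021 with ethanol. It was at -0.0090, -0.13 and 0.011 in the mephedrone arrays and 0.077, -0.020 and 0.19 in the combination arrays. The highest value was thus in combination replicate 3, and all groups overlapped. Its ethanol main effect was 0.091 (SE 0.041, unadjusted p = 0.0462, adjusted p = 0.941) and its mephedrone main effect 0.018 (SE 0.041). Leaving out combination replicate 3 took the ethanol main effect of Nqo1 to 0.063.

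Hmox1, the inducible haem oxygenase, ran from -0.095 in mephedrone replicate 3 to 0.19 in ethanol replicate 2, with all groups overlapping. Its mephedrone main effect was -0.056 (SE 0.043), with a 95% interval from -0.15 to 0.038. It was -0.021 without ethanol replicate 2 and -0.092 with ethanol replicate 1 and combination replicate 3 left out. For Hmox1 mephedrone against saline was -0.072 (SE 0.060). The single arrays with mephedrone alone were at -0.053, 0.0063 and -0.095.

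Gclc, the catalytic subunit of glutathione synthesis, had group means between -0.0080 and 0.015 and a mephedrone main effect of 0.015, with an interval from -0.052 to 0.082. Its partner Gclm had means of -0.068 ± 0.080 (SD, n = 3) in the saline group, -0.012 ± 0.098 in the ethanol group, -0.046 ± 0.073 in the mephedrone group and 0.033 ± 0.032 in the combination group. The combination was 0.10 above saline for Gclm (SE 0.058, adjusted p = 0.521), with overlap between the arrays, and 0.057 above it without saline replicate 2. Txnrd1 had -0.062 ± 0.046, 0.024 ± 0.094, 0.0093 ± 0.082 and 0.057 ± 0.13 in the same order. Its combination arrays were at 0.18, 0.069 and -0.083, the last in replicate 3, and the combination against saline was 0.12 (SE 0.070, adjusted p = 0.541). Without combination replicate 1 the Txnrd1 value was 0.054, and without combination replicate 3 it was 0.19.

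**Figure D3:**
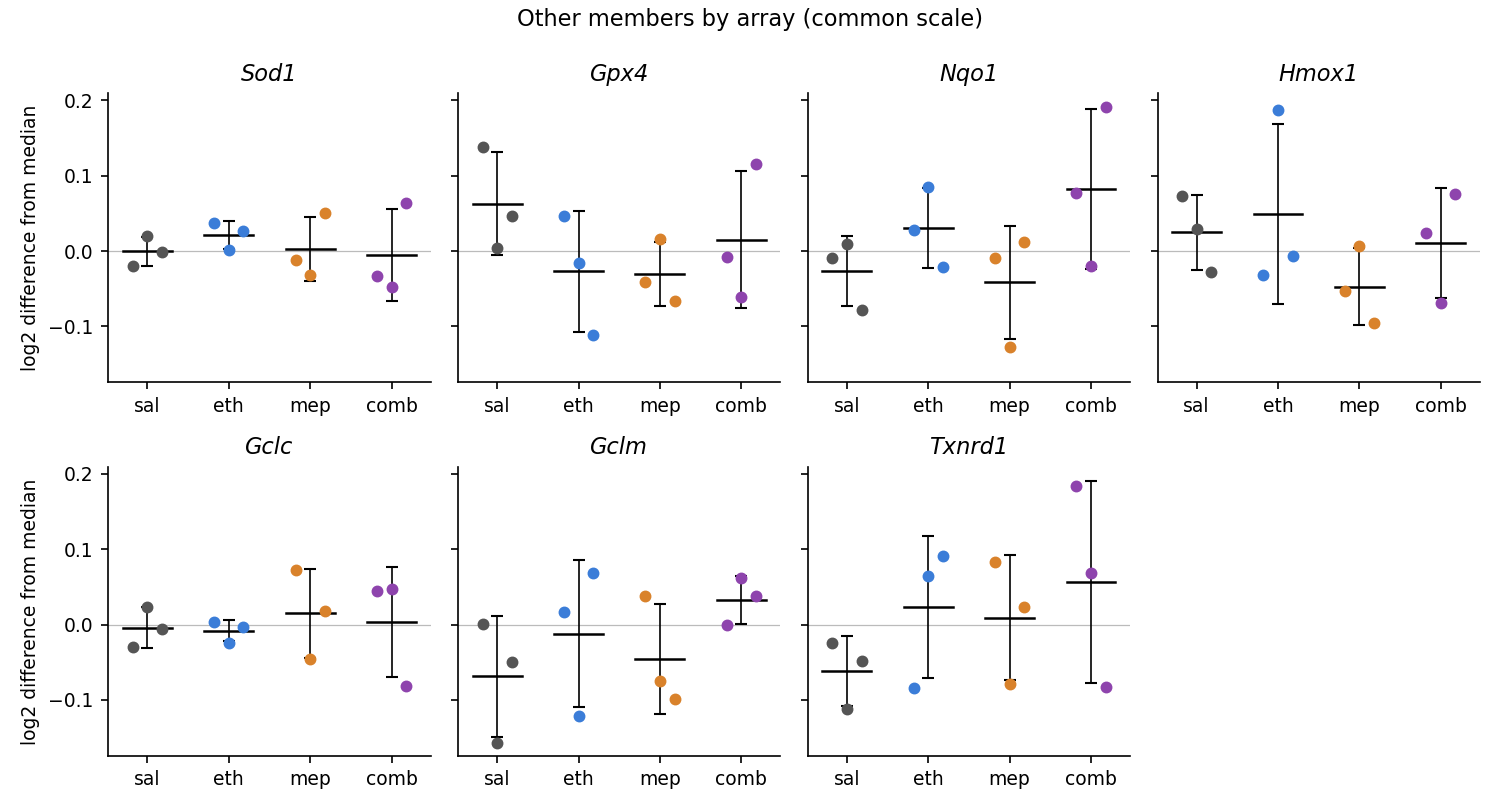
Log2 difference from the probe set median (vertical axis, common scale) for Sod1, Gpx4, Nqo1, Hmox1, Gclc, Gclm and Txnrd1 in the 4 groups, with points for arrays, bars for means and error bars for SDs. The points of all 7 genes lie between -0.16 and 0.19, and the groups of every gene overlap.

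Counts over the 10 members rest on few genes. At an unadjusted p under 0.05 in limma there were 3 members for mephedrone against saline (7.23% of all genes), 2 for the combination against saline (12.1%) and none for ethanol against saline (4.98%). There were 2 for mephedrone against ethanol (6.28%), 2 for the combination against ethanol (9.73%), 1 for the combination against mephedrone (3.31%) and 1 for the interaction (3.54%). In the mephedrone main effect there were 3 (12.6%), in the ethanol main effect 3 (4.57%) and in the F test 3 (8.35%). Of these, Gpx6, Sod2 or Gpx1 made up each count except that Nqo1 joined Gpx6 and Sod2 in the ethanol main effect.

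Some groups did not overlap. For mephedrone against saline Gpx6 and Sod2 were higher without overlap and Gpx1 lower, or 3 members (14.7% of all genes, 9.99% higher and 4.74% lower). For the combination against saline Sod2 was higher and Gpx1 lower, or 2 members (17.4% of all genes, 11.7% higher and 5.77% lower). For ethanol against saline it was 1 member, Sod2, higher (8.55% of all genes, 6.10% higher and 2.44% lower).

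For mephedrone against ethanol it was 2 members, Gpx6 higher and Gpx1 lower (12.3% of all genes, 5.56% higher and 6.70% lower). For the combination against ethanol it was 2 members, Sod2 higher and Gpx1 lower (13.2% of all genes, 6.44% higher and 6.78% lower). For the combination against mephedrone it was 1 member, Gpx6, lower (9.38% of all genes, 4.88% higher and 4.50% lower). In the ethanol main effect it was none (0.115% of all genes, 0.0602% higher and 0.0552% lower). The member medians were 0.017 in the mephedrone main effect and 0.024 in the ethanol main effect, against 0.0038 and 0.0088 over all genes, with 6 members above and 4 below 0 in each. Members thus lay on both sides of 0 in each.

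**Figure D4:**
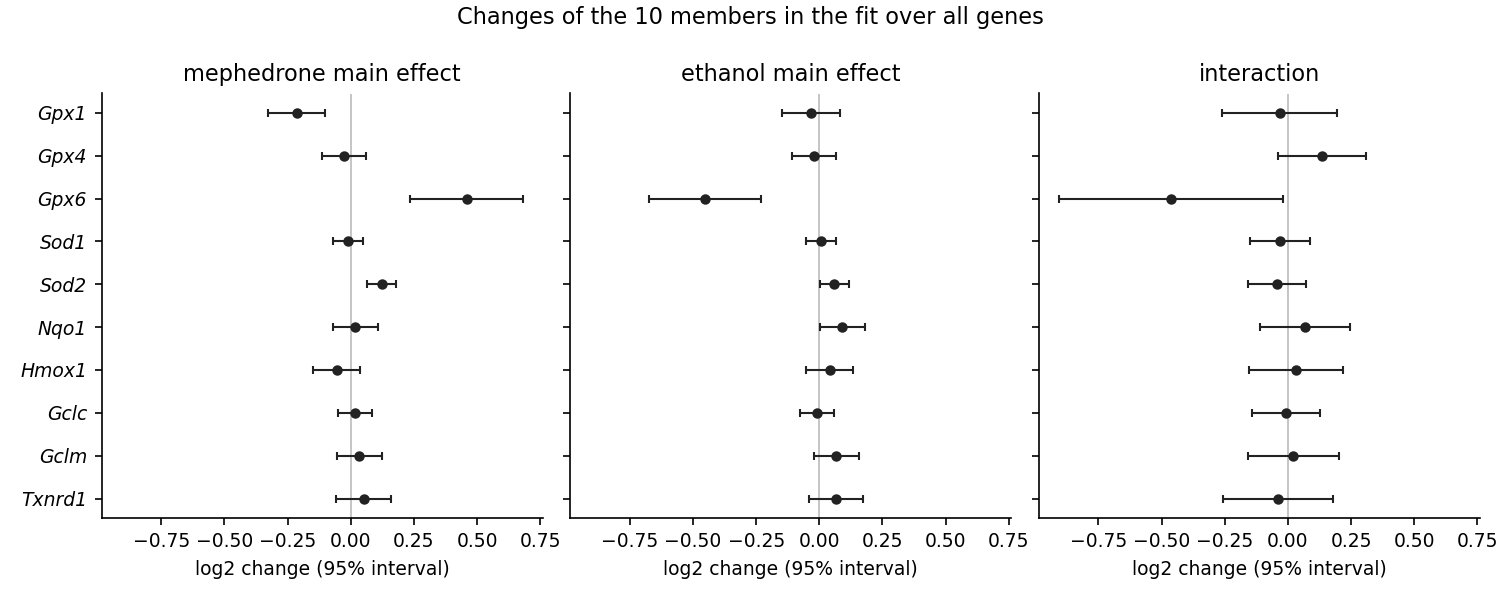
Log2 change (horizontal axis) of each of the 10 members in the mephedrone main effect, the ethanol main effect and the interaction, with 95% intervals of the limma fit before any adjustment. Gpx6 has the widest intervals, at 0.46, -0.45 and -0.46, and Sod2 at 0.12 and Gpx1 at -0.21 are the other members whose interval in the mephedrone panel leaves out 0.

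Around the members, 98 of 103 other genes of the antioxidant system were measured, in 9 lists. None passed over all genes in any comparison, and 14 had an unadjusted p under 0.05 in the mephedrone main effect, which is 14.3% against 12.6% of all genes. The median over the 98 was 0.033 in that comparison, with 72 above and 26 below 0, and 0.029 in the ethanol main effect, with 78 above and 20 below 0. For the combination against saline 81 were above and 17 below 0, with a median of 0.059 against 0.012 over all genes. In the same comparison choroid plexus markers were above 0 in 14 of 14 (median 0.39), cortical markers in 8 of 8 (0.35), astrocyte markers in 9 of 10 (0.10) and oligodendrocyte markers in 8 of 9 (0.088), and striatal projection neuron markers were below 0 in 9 of 11 (median -0.13). Their part in the shift was not tested, nor was that of the marker shifts given above for the main effects of mephedrone and ethanol. The medians given here for the 98 genes are all below 0.1 in log2.

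Among the thioredoxins and peroxiredoxins (14 of 16 measured, 11 above and 3 below 0, median 0.051 in the mephedrone main effect), Prdx3, the peroxiredoxin of mitochondria, had the smallest p. Saline arrays were at -0.24, -0.23 and -0.074, ethanol arrays at -0.068, -0.22 and -0.010, mephedrone arrays at 0.064, 0.010 and 0.012, and combination arrays at 0.12, 0.14 and 0.10. All 6 arrays given mephedrone lay above all 6 others, as in 0.908% of all genes. The mephedrone main effect was 0.21 (SE 0.040, 1.16-fold, adjusted p = 0.0699). It passed in limma with array weights (0.20, adjusted p = 0.0356) and in no other of its 19 settings. Prdx1, its cytosolic relative and an NRF2 target, was at 0.13 (SE 0.043, adjusted p = 0.220).

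In glutathione synthesis and recycling (13 measured, 10 above and 3 below 0, median 0.035), Glrx2, a mitochondrial glutaredoxin, was at 0.13 (SE 0.036, adjusted p = 0.141) and Cth, which makes cysteine from cystathionine, at 0.13 (SE 0.038, adjusted p = 0.150). Cth stood highest in the combination, at 0.077, 0.20 and 0.25, above all 9 other arrays, and was 0.23 above saline there (SE 0.053, adjusted p = 0.146). The share of all genes with such a separation was not counted, and Cth was named for its small p in the F test. For Glrx2 the combination was 0.21 above saline (SE 0.051, adjusted p = 0.150). Glutathione S-transferases (18 of 20 measured, 12 above and 6 below 0, median 0.033) included Gstz1, an enzyme of tyrosine breakdown, at 0.26 (SE 0.052, adjusted p = 0.0762), and Gstm4 at 0.13 (SE 0.048, adjusted p = 0.279). Gstz1 passed with array weights, without ethanol replicate 1 and without both arrays that stand apart.

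Of the regulators of the response 11 were measured, 10 above and 1 below 0, with a median of 0.026. Nfe2l2, which encodes NRF2, was at -0.0038, -0.019 and -0.11 in saline arrays, at 0.16, -0.053 and 0.11 in ethanol arrays, at 0.0038, -0.12 and -0.094 in mephedrone arrays and at 0.0054, 0.035 and 0.36 in combination arrays. The highest value was again in combination replicate 3. Its ethanol main effect was 0.16 (SE 0.061, adjusted p = 0.941), 0.10 without combination replicate 3 and 0.081 without both arrays that stand apart, while its mephedrone main effect was 0.016 (SE 0.061). Rbx1, a subunit of the ligase that degrades NRF2, was at 0.099 in the mephedrone main effect (SE 0.040, adjusted p = 0.329).

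In the other lists no gene had an adjusted p under 0.25 in the mephedrone main effect. The 9 genes of haem and iron handling had a median of 0.031, with Tfrc, the transferrin receptor, at 0.13 (SE 0.044, limma adjusted p = 0.250, or 0.0490 once combination replicate 3 and ethanol replicate 1 were left out) and Hmox2, the constitutive haem oxygenase, 0.10 higher in the combination than with mephedrone (SE 0.036, adjusted p = 0.992). Among the 8 other peroxidases and superoxide enzymes (median 0.021), Cat, the catalase of peroxisomes, was 0.24 higher in the combination than with ethanol (SE 0.11, adjusted p = 0.510), with 0.12 without combination replicate 3 and 0.36 without ethanol replicate 1. Sod3, the extracellular dismutase, was at -0.14 for mephedrone against ethanol. The 7 measured genes of NADPH supply (median 0.030) included Idh1, 0.25 above saline in the combination (SE 0.11) and 0.15 without combination replicate 3, and Taldo1, with an interaction of 0.18 (SE 0.079, adjusted p = 1). The 8 genes of selenoprotein synthesis and selenium supply (median 0.030) included Secisbp2, which binds selenoprotein messages, 0.10 above saline with ethanol (SE 0.035, adjusted p = 0.997), and Scly, a selenocysteine lyase, 0.16 above saline in the combination and 0.081 without combination replicate 3. The 10 other NRF2 targets had a median of 0.044, with 7 above and 3 below 0.

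**Figure D5:**
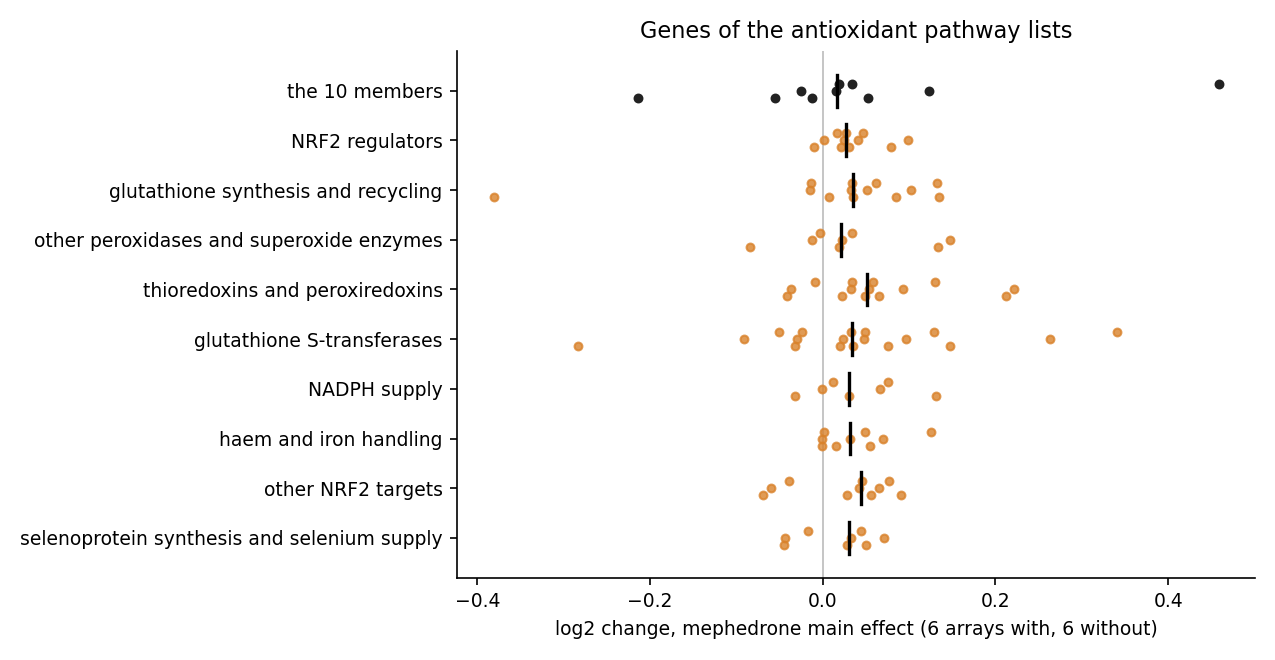
Log2 change in the mephedrone main effect (horizontal axis) of each gene of 9 antioxidant lists (orange points) and of the 10 members (black points), with a vertical bar at each list's median. The list medians lie between 0.021 and 0.051, and the members spread from -0.21 (Gpx1) to 0.46 (Gpx6) around a median of 0.017.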

How the data were processed

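The authors' deposited table holds log2 values of 28853 probe sets on 12 arrays. RMA and genome build mm8 are named per the submitters' processing notes, and GeneSpring GX 7.3.1 in the series design text. Every probe set is centred on its median over the 12 arrays (largest deviation 7.02e-07), a step no source describes, and the log2 scale was read from the values. No value was missing. Probe sets carried 1 symbol (21789), several (1621) or none (5443), and those with 1 were averaged to 19938 genes. A model with 1 mean per group was fitted with limma 3.58.1 (R 4.3.3; 8 residual and 3.43 prior degrees of freedom). Tests were two-sided, with Benjamini-Hochberg adjustment over 19938 genes within each comparison and a threshold of 0.05. Intervals are at 95%. The fit and contrasts were tested on simulated data. No 2 arrays were near copies (highest correlation 0.342). The number of arrays limits the precision. Named pathway genes were, per list, the 2 with the smallest p of the F test, or any that passed. The members, gene lists and tests were chosen with earlier results of these data known. Same-numbered arrays of different groups had deviations from their group means that correlated between -0.281 and 0.427, with 7 of 18 pairs above 0.1, so the numbers were not taken as pairs.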

Additional observations from a re-analysis of the deposited data

How the results depend on the processing

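Over 20 alternative settings the count of members that passed in limma stayed at 0 in all comparisons but 3. For mephedrone against ethanol it was 1 (Gpx6) with array weights, with the choroid plexus covariate and without combination replicate 3, so that leaving out single arrays gave 0 to 1. For the mephedrone main effect it was 2 (Gpx6 and Sod2) with array weights, and 1 (Gpx6) both with the covariate and without both arrays that stand apart. For any difference among the groups it was 1 with the covariate. With the replicate block, which adds the replicate number to the fit, the count stayed at 0, and Gpx6 for mephedrone against ethanol had 0.91 (adjusted p = 0.341). Of the members in the comparison of their smallest p, Gclc turned sign, from 0.023 to -0.0059 for mephedrone against ethanol without mephedrone replicate 1, with up to 0.053 without mephedrone replicate 2. Settings for further comparisons of Gpx6, Sod2, Gpx1, Hmox1, Nqo2, Slc7a11 and Mgst1 were chosen after seeing the data. Over the settings Gpx6 ran from 0.81 to 1.17 for mephedrone against ethanol (adjusted p 0.00665 to 0.727) and Sod2 from 0.17 to 0.20 for the combination against saline (adjusted p 0.0773 to 0.290). The cause of these shifts was not tested.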

Other observations

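Slc7a11, the cystine transporter that feeds glutathione synthesis and a known NRF2 target, had the lowest value of the 98 pathway genes in the mephedrone main effect, and Mgst1, a membrane-bound glutathione transferase, the highest. Both were named after their values were seen. For Slc7a11 the saline arrays were at -0.25, 0.34 and 0.21, the ethanol arrays at 0.015, 0.54 and 0.45, the mephedrone arrays at 0.14, -0.14 and -0.43 and the combination arrays at -0.015, -0.23 and -0.32. The arrays overlapped, and the difference of -0.38 (SE 0.13) did not pass (limma adjusted p = 0.228). Against ethanol the combination was at -0.52 (SE 0.18, adjusted p = 0.397), lower without overlap. In that comparison 13.2% of all genes had no overlap and 6.78% were lower. Mgst1 was at 0.34 (SE 0.16, adjusted p = 0.395), with single arrays from -0.55 to 0.56, and at 0.22 without mephedrone replicate 1.

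Nqo2, a quinone reductase related to Nqo1, had its highest group mean in the ethanol arrays, at 0.12 ± 0.038 (SD, n = 3), against -0.028 ± 0.039 in the saline, -0.052 ± 0.062 in the mephedrone and 0.029 ± 0.092 in the combination arrays. The combination arrays, which reached 0.13, overlapped the ethanol arrays. Ethanol was 0.15 above saline (SE 0.050, adjusted p = 0.997), and mephedrone was at -0.18 against ethanol (SE 0.050, adjusted p = 0.616), neither past the test. Osgin1, another NRF2 target, was 0.12 above saline with mephedrone, 0.069 without mephedrone replicate 2, and did not pass either.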
